A study of Mus musculus with 6 samples.

Results

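The regions described are 208 pairs of RBPJ ChIP-seq peaks. Each pair holds a peak of asynchronous F9 cells and the closest peak of mitotic F9 cells, with centers more than 50 bp apart. The called intervals themselves overlapped in 186 of the 208 pairs. The pairs were chosen by the measured distance between the peak centers, the middle of each called interval. Below, words such as shift, move or cross refer only to the difference between the called centers, not to an observed movement. An asynchronous peak was taken when the closest mitotic center on its chromosome was more than 50 and at most 250 bp away. Of the 5206 asynchronous peaks, 208 or 4.00% met this rule, and their partners were 208 different peaks of the 3227 in the mitotic list, or 6.45%. Because the distance chose the pairs, its length is given as a description. Its direction, the sequence beneath it and the genes beside it were not used in the choice. The 217 pairs with centers at most 50 bp apart, called co-centered below, served as the comparison.

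F9 is a murine embryonal carcinoma cell line. The study sequenced 6 libraries, with 2 anti-RBPJ immunoprecipitations and 1 input each for asynchronous cells, about 95% in interphase and 5% in mitosis per the labels, and for cells arrested in mitosis with nocodazole, a drug that blocks the assembly of microtubules. The cells carry no other treatment or genetic change in the labels. The peak lists used here come from the first immunoprecipitation of each population, so that each value rests on a single list per population. There were no replicates, and every interval given covers counting error only. Asynchronous peaks were all 173 bp wide and mitotic peaks all 203 bp wide. The read depth behind the lists was not analysed here.

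RBPJ is the DNA-binding protein of the Notch pathway. It recognizes a short sequence and recruits repressors in the absence of signal, and the cleaved intracellular part of a Notch receptor turns it into an activator of genes such as Hes1. A factor that keeps its sites on condensed mitotic chromosomes, where little RNA is made, is regarded as a possible bookmark. CTCF, a zinc-finger protein that organizes chromatin loops, has a longer recognition sequence, which was searched for in the same windows.

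The sequences around the centers are given first for the 8 pairs with an RBPJ motif that ranked best in score within both lists, because the motif marks a fixed point against which the positions of both centers can be read. The motif was TTCCCACA or TTCCCACG on either strand. All stretches are the plus strand of mm9, with the motif in capitals. They reach 10 bp beyond the centers and the motif, except at Rpl36a, where only the motif and its neighboring bases are given because an untranslated region is annotated there.
Rpl36a, chrX:131120148-131120177: atggtcgccgtTTCCCACGgctctgaggaa
Hsp90aa1, chr12:111935334-111935468: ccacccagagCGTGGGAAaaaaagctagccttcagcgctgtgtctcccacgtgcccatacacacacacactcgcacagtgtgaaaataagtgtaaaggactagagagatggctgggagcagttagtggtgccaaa
Ddx54, chr5:121070840-121070920: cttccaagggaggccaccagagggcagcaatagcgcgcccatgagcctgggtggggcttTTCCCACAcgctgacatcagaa
Gm17591, chr12:80908545-80908703: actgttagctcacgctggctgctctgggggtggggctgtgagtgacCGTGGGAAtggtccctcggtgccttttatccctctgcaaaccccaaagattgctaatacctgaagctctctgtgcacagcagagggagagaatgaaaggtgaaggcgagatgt
Itln1, chr1:173461644-173461781: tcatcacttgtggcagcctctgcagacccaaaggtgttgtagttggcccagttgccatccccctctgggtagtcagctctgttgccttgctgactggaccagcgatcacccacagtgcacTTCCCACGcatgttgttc
Tpd52l2, chr2:181231147-181231233: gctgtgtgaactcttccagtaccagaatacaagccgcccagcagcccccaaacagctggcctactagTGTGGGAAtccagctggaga
Mterfd3, chr10:84590855-84590937: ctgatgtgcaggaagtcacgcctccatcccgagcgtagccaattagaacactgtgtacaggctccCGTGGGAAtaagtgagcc
Sik1, chr17:31957177-31957385: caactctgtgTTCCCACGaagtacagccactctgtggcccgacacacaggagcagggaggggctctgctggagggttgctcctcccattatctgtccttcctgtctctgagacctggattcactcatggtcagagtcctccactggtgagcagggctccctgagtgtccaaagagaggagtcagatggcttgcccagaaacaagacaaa
In each of these 8 stretches the motif was on the asynchronous side. Its middle lay 2.5 to 39.5 bp away from the asynchronous and 52.5 to 184.5 bp away from the mitotic center. The gene given is that of the closest transcription start site (TSS), which for Gm17591 was far off, with the asynchronous center at -300466 bp.

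The corresponding 8 pairs with a CTCF motif are given because the motif there lay on either side. The motif was CCACT directly followed by AGGGGGC, on either strand, with up to 2 mismatches, and is again in capitals.
Pafah2, chr4:133952027-133952104: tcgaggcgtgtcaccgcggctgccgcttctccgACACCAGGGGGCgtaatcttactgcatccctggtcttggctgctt
Mfsd7c, chr12:87086840-87086979: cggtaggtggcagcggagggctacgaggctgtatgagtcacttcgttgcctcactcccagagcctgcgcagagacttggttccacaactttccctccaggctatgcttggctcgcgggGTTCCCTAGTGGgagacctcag
Ehmt2, chr17:35049188-35049324: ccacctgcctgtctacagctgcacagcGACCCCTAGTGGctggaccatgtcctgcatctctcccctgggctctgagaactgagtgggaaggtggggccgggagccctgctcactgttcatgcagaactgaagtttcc
Ddx54, chr5:121070840-121070920: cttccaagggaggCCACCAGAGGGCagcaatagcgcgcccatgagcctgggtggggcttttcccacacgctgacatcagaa
SNORA9, chr8:86887762-86887846: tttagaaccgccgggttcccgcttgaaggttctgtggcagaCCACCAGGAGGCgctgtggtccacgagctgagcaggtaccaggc
Wdr37, chr13:8870436-8870563: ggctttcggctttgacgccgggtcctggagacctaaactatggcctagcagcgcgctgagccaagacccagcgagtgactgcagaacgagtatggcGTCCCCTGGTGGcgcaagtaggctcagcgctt
Lasp1, chr11:97663144-97663252: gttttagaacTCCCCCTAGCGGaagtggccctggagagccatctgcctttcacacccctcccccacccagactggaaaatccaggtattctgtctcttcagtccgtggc
Ninj2, chr6:120148041-120148220: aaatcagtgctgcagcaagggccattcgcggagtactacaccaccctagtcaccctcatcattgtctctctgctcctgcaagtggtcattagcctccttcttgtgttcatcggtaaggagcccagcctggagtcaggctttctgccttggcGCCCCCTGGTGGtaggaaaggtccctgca
It sat nearer to the asynchronous center at Ehmt2, SNORA9, Lasp1 and Ninj2 and closer to the mitotic center at Mfsd7c, Ddx54 and Wdr37, and at Pafah2 it was 28.5 bp from each. The Ddx54 pair appears in both sets. Its RBPJ motif was 7.5 bp from the asynchronous center and its CTCF motif was 8.5 bp from the mitotic center, although the centers were only 60 bp apart.

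The distances between centers ran from 51 to 248 bp with a median of 103 bp and quartiles of 72.8 and 157 bp. Short shifts were the most frequent, with 57 pairs at up to 75 bp, 43 at up to 100 bp and 30 at up to 125 bp, but 31 pairs lay between 150 and 175 bp, more than the 19 between 125 and 150 bp. The intervals of 186 pairs overlapped and those of 22 did not. Because each list had a single peak width, the distance alone decided this. All 208 pairs were each other's closest centers. The shortest shifts were 51 bp at Mzt2, 52 bp at Fbrsl1 and 52 bp at Rimklb, and the longest were 248 bp at Kifc3, 247 bp at Celsr3 and 246 bp at Trappc9. Just outside the limits lay pairs 49 bp apart at S1pr3, Iffo1 and Uqcrc1 and a pair 253 bp apart at Ndufa9.

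The peak score is the authors' own measure and was read only within its list. The members had asynchronous scores between 10.1 and 58.3 and a median of 12.7, against 11.8 over the whole list. Their mitotic scores lay between 10.2 and 55.3, and the median was 11.6, against 10.9. Co-centered pairs had medians of 14.4 and 11.6. Both scores reached the median of their list in 109 pairs, or 52.4% (45.4 to 59.4), and in 58.5% of co-centered pairs, a difference of -6.12 percentage points (-15.4 to 3.30) that includes 0. The mitotic partner had the lowest score in its list, 10.2, in 54 pairs, a score shared by 1376 mitotic peaks. The median distance was the same, 103 bp, in the 109 pairs with both scores at or above the medians and in the other 99.

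**Figure D1:**
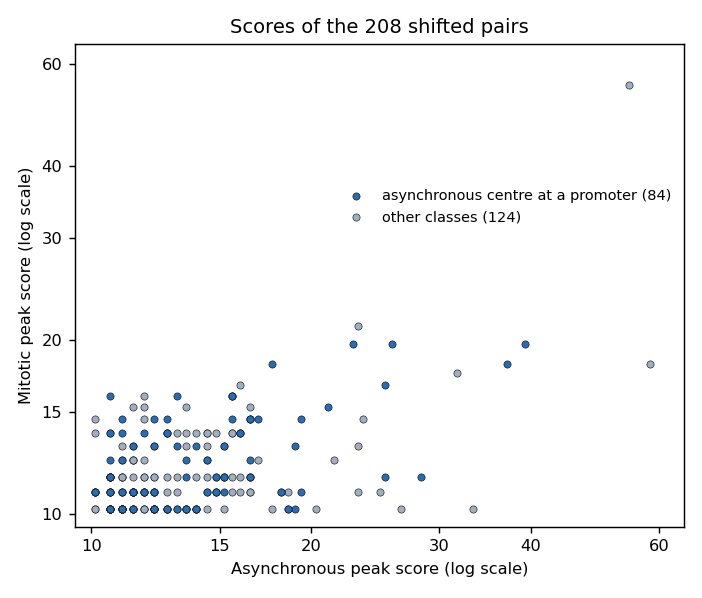
Scores of the 208 shifted pairs, with the asynchronous score on the horizontal and the mitotic score on the vertical axis, both logarithmic and each on the scale of its own list. Each point is a pair, and most lie below 20 on both axes, with a single pair at 54.5 and 55.3.

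The ChIP-qPCR primers of the study were placed on mm9 by exact match. Their amplicons lay at 3 of the pairs, which are referred to as the chrX, chr2 and chr4 loci. The chrX locus belongs to Rpl36a (ENSMUSG00000079435.3), which codes for a protein of the large ribosomal subunit. There the asynchronous peak chrX:131120087-131120259 was centered at -20 bp and the mitotic peak chrX:131120157-131120359 at 65 bp from the TSS, on the plus strand. The centers therefore lay on either side of the start site, with the mitotic center downstream. Both intervals spanned the start site. One amplicon, chrX:131120121-131120214, had its middle 5.5 bp below the asynchronous center, and another, chrX:131120219-131120318, had its middle 10.5 bp above the mitotic center. The third amplicon lay upstream of both, with its middle at -103.0 bp from the asynchronous center.

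At the chr2 locus the pair lay in the promoter of Tpd52l2 and moved away from the gene, from -624 to -690 bp of the TSS. The amplicon chr2:181231193-181231274 had its middle 10.5 bp from the asynchronous center, and chr2:181231097-181231183 had its middle at -17.0 bp from the mitotic center. At the chr4 locus the shift was 68 bp. The closest TSS was that of Gm12866, a processed transcript on the minus strand, with the asynchronous center at -2725 bp and the mitotic center at -2793 bp. The closest protein-coding start was that of Slc2a1, a glucose transporter gene, with the asynchronous center at -36875 bp. Here the amplicon chr4:118744426-118744522 lay between the centers, at 33.0 bp from the asynchronous and -35.0 bp from the mitotic center, and the other amplicon was centered 70.5 bp beyond the mitotic center. This locus held neither TTCCCACA nor TTCCCACG, the only forms searched for here as the full motif. The study, however, reports an RBPJ-binding motif at the asynchronous peak center of each of its ChIP-qPCR shift loci. The sequence is therefore given with the shorter TTCCCA, on either strand, in capitals.
chr4 locus, chr4:118744381-118744549: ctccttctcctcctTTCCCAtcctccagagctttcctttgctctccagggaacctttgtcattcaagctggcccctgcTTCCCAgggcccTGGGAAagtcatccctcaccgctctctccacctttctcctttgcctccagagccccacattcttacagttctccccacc
The asynchronous center is base 61 of this stretch and the mitotic center base 129. The 3 occurrences of the short motif had their middles on both sides of the asynchronous center, at -43.5, 20.5 and 32.5 bp. From the mitotic center they were at -111.5, -47.5 and -35.5 bp, all on the asynchronous side.

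The pair with the best ranks in both lists lay in an intergenic region of chromosome 11, 4262 bp downstream of the start of the pseudogene Gm11668. Its scores were 54.5 (rank 2) in asynchronous and 55.3 (rank 5) in mitotic cells, and its centers were 79 bp apart. The second was at the promoter of Clcn4-2, a chloride and proton exchanger gene, with scores of 39.3 and 19.7. There the mitotic center lay 213 bp farther upstream, at -294 instead of -81 bp, and the intervals did not overlap. The chr4 and chrX loci followed.

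Of the remaining 6 pairs among the best 10, 4 lay in promoters. At Hist4h4, which codes for histone H4, the centers were at -13 and -97 bp, with scores of 25.8 and 19.7. At Hsp90aa1, the stress-inducible HSP90 chaperone gene, they were at -751 and -853 bp, with scores of 22.8 and 19.7. At Cdt1, a licensing factor of DNA replication, they were at -722 and -614 bp, with scores of 21.1 and 15.3. Pafah2 moved toward its start, from -198 to -141 bp, as Cdt1 did, whereas Hist4h4 and Hsp90aa1 moved away from theirs. The 2 others lay in introns, 1 in the non-coding RNA gene Gt(ROSA)26Sor, at 1081 and 1147 bp, and 1 upstream of the closest start of Ppp2r5c, a regulatory subunit of protein phosphatase 2A, at -13335 and -13273 bp.

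The shift was split nearly evenly along the genome and along the genes, with intervals that include 50%. Mitotic centers were at the higher coordinate in 114 of 208 pairs, or 54.8% (47.8 to 61.7). Along the strand of the closest TSS it lay downstream in 99 pairs and upstream in 109, or 47.6% downstream (40.6 to 54.6), and co-centered pairs gave 47.9%. The difference was -0.271 percentage points (-9.75 to 9.21). In the 99 pairs with a TSS within 1 kb the split was 49 downstream and 50 upstream. The longest shifts were mostly upstream, with 4 downstream and 13 upstream among the 17 pairs more than 200 bp apart, a count noticed after the values were seen and not tested.

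**Figure D2:**
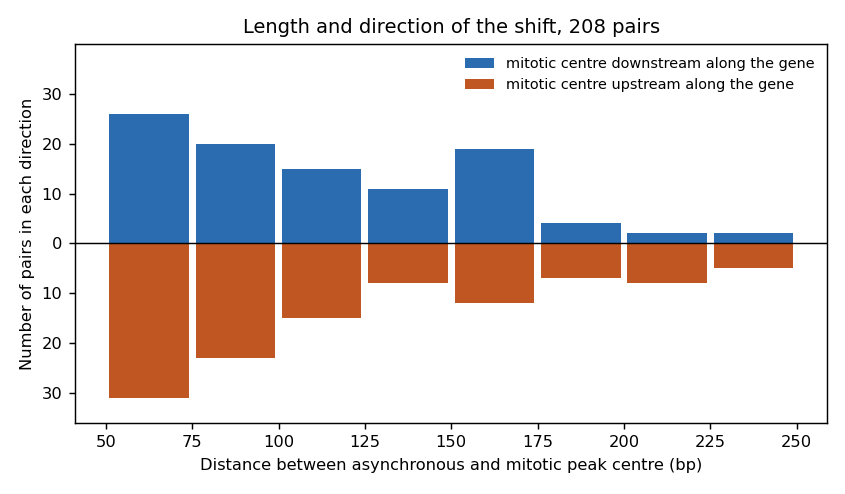
Number of pairs in 25 bp bins of the distance between centers, with bars above 0 for mitotic centers downstream and bars below 0 for mitotic centers upstream along the strand of the closest gene. The bars reach 26 and 31 pairs in the first bin, and 2 and 8 between 200 and 225 bp.

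The mitotic center lay closer to the TSS than the asynchronous center in 81 of 208 pairs, or 38.9% (32.3 to 45.9), which is below an even split. This share rests on a TSS chosen as the closest to the asynchronous center. With the TSS closest to the middle of the pair it was 85 of 207, or 41.1% (34.3 to 48.1), and with the TSS closest to the mitotic center it was 44.0% (37.1 to 51.0), which includes an even split. In 26 pairs the asynchronous center was so near the TSS that a shift of that length in either direction led away from it, and among the other 182 the share was 44.5% (37.2 to 52.0). Against co-centered pairs, where the share was 46.9%, the difference was -7.98 percentage points (-17.2 to 1.49). The share thus depended on which TSS was used.

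Within 1 kb of a TSS, asynchronous centers lay at a median of -44 bp and mitotic centers at -79 bp, over 99 pairs. The asynchronous center was upstream of the TSS in 63 of these pairs, and from there 35 mitotic centers moved farther upstream and 28 moved toward or past the start. Of the 36 asynchronous centers downstream of the TSS, 21 moved farther into the gene. Mitotic centers came within 50 bp of any TSS in 14 of 208 shifted pairs, or 6.73% (3.73 to 11), and in 29 of 217 co-centered pairs, or 13.4%. Asynchronous centers did so in 24 and 27 pairs, or 11.5% and 12.4%. The mitotic counts are partly set by the rule, since a shift of more than 50 bp tends to lead away from a TSS that the asynchronous center is close to, so no test of their difference is given. Within 200 bp the mitotic counts were 52 and 64 pairs, and the difference of their shares, -4.49 percentage points (-12.8 to 3.98), included 0.

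**Figure D3:**
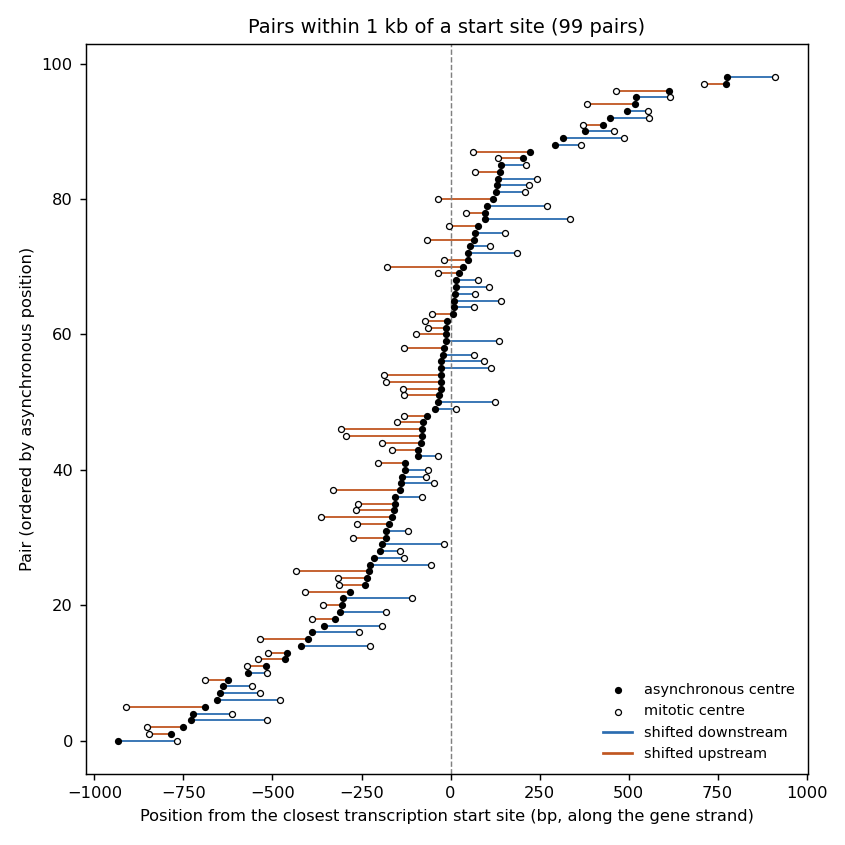
The 99 pairs with a TSS within 1 kb of the asynchronous center, 1 line each, ordered by the asynchronous position. Filled points are asynchronous and open points mitotic centers, the horizontal axis is the distance from the TSS along the gene, and 49 lines run downstream and 50 upstream.

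In 13 pairs the centers fell on either side of the TSS, 6 from upstream to downstream and 7 the other way, and 11 of the genes were protein-coding. This was 6.25% of pairs against 3.79% of co-centered pairs, a difference of 2.46 percentage points (-1.89 to 7) that includes 0, and longer shifts cross a TSS more easily. Besides Rpl36a, the centers moved into the gene at Dpm2, a subunit of dolichol-phosphate mannose synthase, from -26 to 113 bp. The same direction was found at Smcr8, from -14 to 137 bp, and at Kntc1, a kinetochore protein of the spindle checkpoint, from -35 to 124 bp. They moved out of the gene at Actr6, from 65 to -65 bp, and at Cox6b2, a subunit of cytochrome c oxidase, from 120 to -36 bp. The same was found at Tomm40l, where the mitotic center lay farthest, from 35 to -178 bp. The remaining 3 genes chosen by the ranks, 1110038D17Rik, Sarnp and Ap4m1, also had the mitotic center on the upstream side, at -35, -18 and -51 bp.

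By class, 84 asynchronous centers or 40.4% (33.7 to 47.4) lay at promoters, here the stretch between 1 kb before and 100 bp after a TSS. Introns held 47, or 22.6% against 28.1% of all asynchronous peaks, and intergenic regions 40, or 19.2% against 21.6%. Distal promoters held 20, or 9.62% against 9.82%, and exons 9, or 4.33% against 5.01%. The surroundings of transcript ends held 8, or 3.85% against 4.17%. The mitotic centers gave nearly the same split, with 84 at promoters, 50 in introns, 40 intergenic, 20 at distal promoters, 8 in exons and 6 at transcript ends. Promoters made up 46.1% of the co-centered pairs, a difference of -5.70 percentage points (-14.9 to 3.70), and 31.3% (30.0 to 32.6) of all asynchronous peaks. The median distance was 92.5 bp at promoters, 112 bp in introns and 110 bp in intergenic regions.

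In 11 pairs the centers differed in class. Only the asynchronous center was classed as promoter at Fdps, which codes for an enzyme of the mevalonate pathway, at Dpm2 and at Zcwpw1. Only the mitotic center was so classed in 3 pairs, among them Cox6b2 and Hist1h1a, a linker histone gene. The class was read at the center alone, and the asynchronous and mitotic intervals overlapped at Fdps and Dpm2. The Hist1h1a pair moved from 222 to 62 bp of the TSS. The other changes were between introns, exons and transcript ends, for example at Ninj2, Abr and Kifc2.

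The RBPJ motif lay mostly on the asynchronous side. Windows reaching 100 bp to either side of the asynchronous centers held it in 16 of 208 pairs, or 7.69% (4.46 to 12.2), and windows around the mitotic centers in 9, or 4.33% (2.00 to 8.05). Windows of the same length 2 kb to either side of the asynchronous centers held it in 13 of 416 cases, or 3.12% (1.67 to 5.28). All asynchronous peaks gave 9.43% and all mitotic peaks 3.53%. Co-centered pairs had the motif more often, in 17.5% of asynchronous and 17.1% of mitotic windows. The differences were -9.82 percentage points (-16.1 to -3.51) for the asynchronous and -12.7 (-18.6 to -6.97) for the mitotic windows.

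In a joint window, from 100 bp before the first to 100 bp after the last center, 20 shifted pairs held the motif. The occurrence closest to a center was closer to the asynchronous center in 16 of the 20, or 80% (56.3 to 94.3), at a median of 25 bp, against 99.0 bp from the mitotic center. It lay within 25 bp of the asynchronous center in 10 pairs and within 25 bp of the mitotic center in 1, at Tln1. The 4 pairs with the motif on the mitotic side were Kank2, Cpne5, Ppm1h and Tln1, named after their values were seen, and 3 of them had it more than 40 bp from the mitotic center as well. Of the co-centered pairs with unequal distances, 23 of 38 or 60.5% had the motif on the asynchronous side, a difference of 19.5 percentage points (-6.20 to 39.3) that includes 0. With TTCCCA, which is contained in the full motif, the share was 64 of 96 or 66.7% (56.3 to 76.0) in shifted and 66.0% in co-centered pairs. The short motif was in 40.9% of asynchronous and 30.3% of mitotic windows of shifted pairs and in 20.7% of the windows 2 kb away. All asynchronous peaks gave 38.6% and all mitotic peaks 25%. Co-centered pairs gave 44.7% and 44.2%, with differences of -3.84 percentage points (-13.1 to 5.54) for the asynchronous and -14.0 (-22.8 to -4.75) for the mitotic windows.

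The CTCF motif, too, was more often in the asynchronous window alone, in 18 pairs, than in the mitotic window alone, in 6, and 25 pairs held it in both. For RBPJ these counts were 11, 4 and 5, and the difference between the motifs was not tested. CTCF was in 43 asynchronous windows, or 20.7% (15.4 to 26.8), and in 31 mitotic windows, or 14.9% (10.4 to 20.5), against 4 of 416 windows 2 kb away, or 0.962% (0.263 to 2.44). All asynchronous peaks gave 11.7% and all mitotic peaks 5.95%. The co-centered pairs gave 14.7% and 15.2%, with differences of 5.93 percentage points (-1.35 to 13.2) and -0.304 (-7.13 to 6.58). Of the 50 shifted pairs with the motif in the joint window, 1 was at equal distance, and in the other 49 it was closer to the asynchronous center in 30, or 61.2% (46.2 to 74.8), as in 60.6% of co-centered pairs. The medians were 44.5 bp from the asynchronous and 75.5 bp from the mitotic center. The joint share of 24.0% depends on the mismatches allowed, as 14 pairs or 6.73% held the motif with at most 1. The side depends on the motif as well, with 15 of 32 pairs or 46.9% on the asynchronous side for AGGGGGC.

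**Figure D4:**
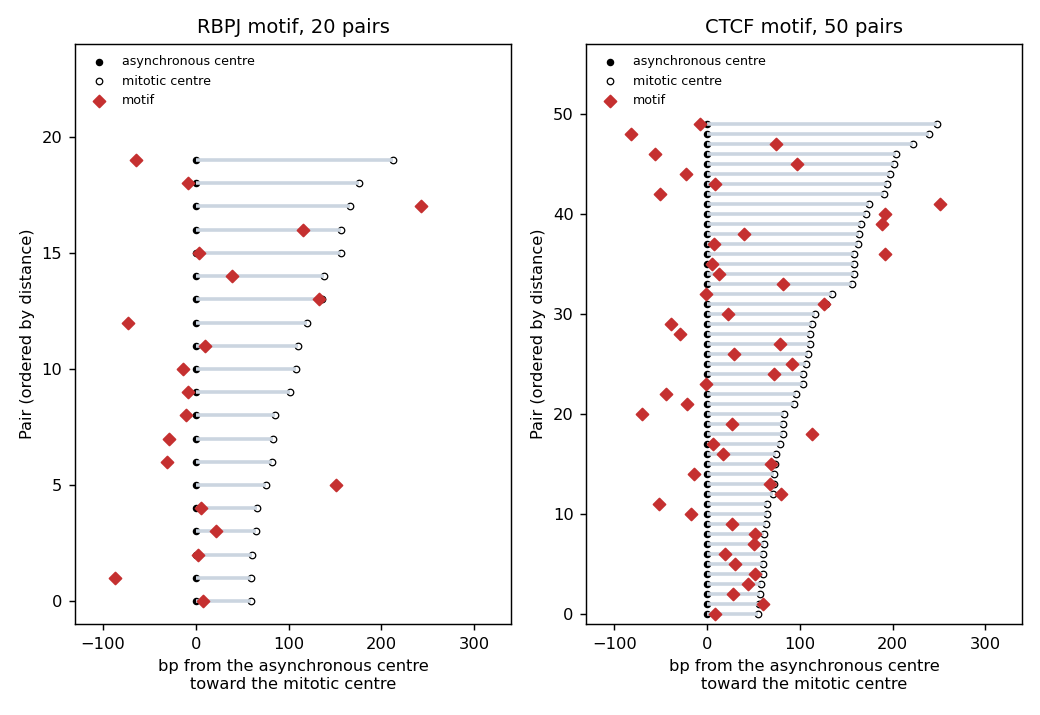
Position of the motif (diamonds) in the pairs that held it, on an axis that starts at the asynchronous center (filled points, 0 bp) and points toward the mitotic center (open points). The asynchronous center was the nearer one to the RBPJ motif in 16 of 20 pairs and to the CTCF motif in 30 of 49.

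Examples with the CTCF motif at the mitotic center were Vegfa, which codes for a growth factor of blood vessels, where it was 4.5 bp from the mitotic and 60.5 bp from the asynchronous center, and St3gal2, with 3.5 and 69.5 bp. At Socs3, an inhibitor of cytokine signaling, the motif was on the opposite side, 5.5 bp from the asynchronous and 153.5 bp from the mitotic center. These 3 were chosen after their values were seen. Both motifs occurred together in 4 shifted pairs, or 1.92% (0.526 to 4.85), and in 4.61% of co-centered pairs. Besides Ddx54 they included Kank2 and Arhgap23. At Kank2 both motifs were on the mitotic side, 76.5 bp (RBPJ) and 22.5 bp (CTCF) from the mitotic center.

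Along the motif, too, the intervals include an even split. Read along the strand of the motif, the mitotic center lay toward the 3′ end in 11 of 20 pairs for RBPJ (55.0%, 31.5 to 76.9) and in 22 of 50 for CTCF (44.0%, 30.0 to 58.7). Other short sequences were searched after the values were seen. The E box CACGTG was in 22 asynchronous windows (10.6%, 6.75 to 15.6) and 13 mitotic windows (6.25%, 3.37 to 10.5), against 9.32% of all asynchronous and 4.28% of all mitotic peaks and 11.1% and 10.6% of co-centered windows. The GC box GGGCGG was in 51 (24.5%) and 43 (20.7%), against 16.5% and 11% of all peaks and 21.2% and 20.7% of co-centered windows. CCAAT was in 45 (21.6%) and 43 (20.7%), against 22.7% and 22.7% of all peaks and 28.6% and 28.1% of co-centered windows. CCGGAAG was in 11 (5.29%) and 11 (5.29%), against 6.01% and 3.35% of all peaks and 4.15% and 4.15% of co-centered windows. AAGATGGC was in 5 (2.40%) and 1 (0.481%), against 2.21% and 1.55% of all peaks and 1.38% and 1.38% of co-centered windows. GCGCATGCG was in 1 (0.481%) and 0, against 1.13% and 0.372% of all peaks and 3.69% and 3.23% of co-centered windows. The exact interval for 0 of 208 windows reaches 1.76%. The intervals of the asynchronous and the mitotic share overlapped for each of these 6 sequences. Both windows belong to the same pairs, so this overlap does not compare the shares, and their difference was not tested.

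The DNA around the asynchronous center was slightly richer in G+C. In windows of the same length as for the motifs it had more G+C than that around the mitotic center in 120 of the 197 pairs that differed, or 60.9% (53.7 to 67.8), with medians of 56.2% and 55.2% G+C. The direction was similar at promoters, with 48 of 81 pairs, and elsewhere, with 72 of 116. CpG dinucleotides were more frequent around the asynchronous center in 111 of 174 pairs, or 63.8% (56.2 to 70.9). In co-centered pairs the shares were 52.9% for G+C and 54.1% for CpG, and the differences of 8.04 percentage points (-2.03 to 17.9) and 9.74 (-1.88 to 21.2) included 0. Along the axis of the shift the mean G+C content was 57.3% ± 0.707 (SEM over 208 pairs) in the 20 bp at the asynchronous center, 53.9% ± 0.759 at 120 bp toward the mitotic center and 53.4% ± 0.991 at 120 bp in the opposite direction.

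**Figure D5:**
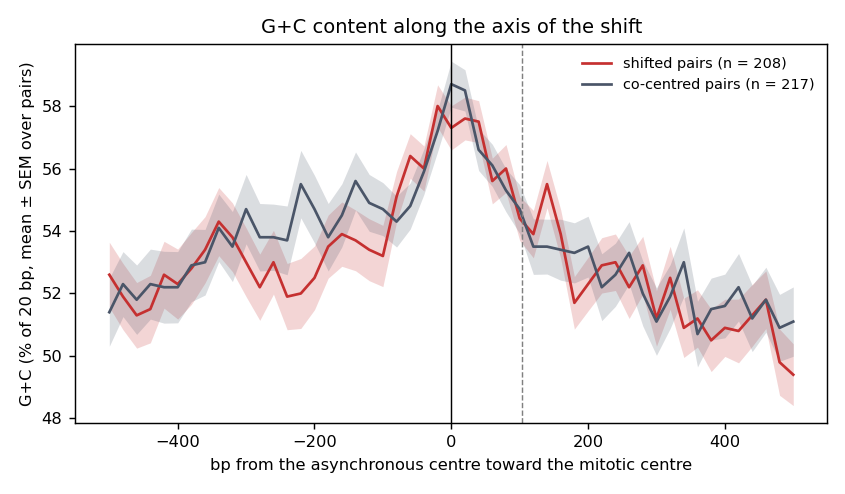
Mean G+C content of 20 bp bins along an axis from the asynchronous center (solid line at 0 bp) toward the mitotic center (dashed line at the median distance of 103 bp), with bands of 1 SEM over pairs. Both curves are highest near 0 bp, and the shifted pairs had 57.3% in the bin at the asynchronous center.

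Genes of fixed lists were counted where the TSS was within 10 kb of the asynchronous center, which held for 153 shifted pairs, 168 co-centered pairs and 3527 asynchronous peaks. The single Notch pathway member was Hes1 (ENSMUSG00000022528.7), a repressor gene that is a direct Notch target. Its shifted pair lay upstream, at chr16:30063194-30063366 in asynchronous and chr16:30063069-30063271 in mitotic cells. The mitotic center was 110 bp farther from the TSS, at -1300 instead of -1190 bp, and the scores were 16.5 and 10.9. Its joint window held neither the full RBPJ motif nor the CTCF motif. The study describes a Hes1 promoter region with an RBPJ-binding motif that RBPJ occupied in both populations. Whether this pair belongs to that region was not examined. The share of Notch genes was 0.654% of shifted pairs, 2.38% of co-centered pairs and 0.737% of all asynchronous peaks.

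Cytosolic ribosomal protein genes made up 3 pairs, or 1.96% against 2.38% of co-centered pairs and 0.766% of all asynchronous peaks. They included Rpl36a at the chrX locus, where the shift was 85 bp downstream. Nuclear genes for mitochondrial machinery made up 6 pairs, or 3.92% against 2.98% of co-centered pairs and 1.62% of all asynchronous peaks. They were Mterfd3, a transcription termination factor family member with an asynchronous score of 28.3, Mrpl51, a mitochondrial ribosomal protein, Cars2, a tRNA synthetase, Cox6b2, Tufm, an elongation factor, and Tomm40l. The directions were mixed, with 4 downstream and 2 upstream.

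Genes matched by name in the cell cycle list made up 5 pairs, or 3.27% against 2.98% of co-centered pairs and 1.62% of all asynchronous peaks. The list did not hold Kntc1. Apart from Cdt1, they were Anapc10, a subunit of the anaphase-promoting complex, with centers at 16 and 108 bp, Cdk4, a G1 kinase, with centers at -143 and -330 bp, Cdc42bpb, a kinase that acts on the actin cytoskeleton, and Cdkn1c, a kinase inhibitor, whose pair lay at -3018 and -3092 bp. Chromatin genes made up 7 pairs, or 4.58% against 1.79% of co-centered pairs and 1.81% of all asynchronous peaks. They included Hist4h4, Hist1h1a and the histone methyltransferase gene Ehmt2, at 1278 and 1394 bp, and also the remodeler genes Smarca5, from -656 to -478 bp, and Arid1a, from -933 to -769 bp. Chaf1b, a subunit of a histone chaperone, moved from -324 to -388 bp.

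RNA processing genes made up 5 pairs, or 3.27% against 2.38% of co-centered pairs and 2.15% of all asynchronous peaks, namely Ddx54, Ddx19a, Cpsf2, Exosc2 and Srsf10. The pluripotency and the developmental factor lists shared their only member, Tbx3, with centers 126 bp apart in an intron. This is 0.654% of shifted pairs, against 0.851% (pluripotency) and 1.13% (developmental factors) of all asynchronous peaks, and 0 and 1 co-centered pairs. Within 10 kb, small non-coding RNAs were the closest genes in 1 pair, a U3 gene, or 0.654% against 4.17% of co-centered pairs and 4.68% of all asynchronous peaks. U6, U1 and SNORA9 genes were the closest at pairs beyond that limit. Each of these counts is 7 or fewer, and none was tested.

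The pairs were spread over all 20 chromosomes with peaks, with the most, 29, on chromosome 8 (5.60% of its asynchronous peaks) and the fewest, 2, on chromosome 19 (1.27%). Chromosome 8 also held the most peaks of both lists, 518 asynchronous and 527 mitotic. The highest share of asynchronous peaks was 6.58%, on chromosome 10. Most pairs stood alone. A further asynchronous center lay within 1 kb in 11 pairs, or 5.29% (2.67 to 9.27), and a further mitotic center in 1, against 6.91% and 3.23% of co-centered pairs. Start sites on both strands lay within 1 kb of 19 asynchronous centers, or 9.13%, and of 11.1% of those in co-centered pairs.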

How the data were processed

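RBPJ ChIP-seq peak lists of asynchronous and mitotic F9 cells were used, 1 list per population, each of a first immunoprecipitation. Per the submitters' processing notes and the methods, the authors aligned reads uniquely to mm9 with Bowtie 0.12.7 and used HOMER with the input of the same population to call peaks, and the score of each peak is used as deposited. The second immunoprecipitations, the inputs and the reads were not analysed here. The number of peaks sets the counting error of the shares, and read depth was not used. How precisely a peak center is placed is not covered by any interval. It could not be checked without a replicate list, so an error in placement may contribute to the distances.

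Each asynchronous center was paired with the closest mitotic center. Genes, classes and untranslated regions came from GENCODE vM1 on the same build (95495 transcripts of 37310 genes). Promoters spanned 1 kb before to 100 bp after a TSS, surroundings of transcript ends 100 bp before to 1 kb after the end, and distal promoters 10 kb before to 1 kb after a TSS, in the priority promoter, transcript end, exon, intron, distal promoter, intergenic. Shares have exact Clopper-Pearson 95% intervals and differences (shifted minus co-centered) Newcombe 95% intervals. Of 83 differences computed, 13 had an interval without 0. They were not adjusted for their number. The longer windows of shifted pairs can raise their shares for joint windows and for motifs between the centers. For the RBPJ motif in the joint window the difference was negative, at -8.82 percentage points (-15.4 to -2.20). Differences for motifs in the asynchronous window only and for mitotic centers within 50 bp of a TSS are partly set by the distance rule. Python 3.11.15, pandas 2.3.3, numpy 2.4.6, scipy 1.17.1, pysam 0.24.0 and matplotlib 3.10.9 were used, and the steps were tested on simulated data.

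The members and gene lists were chosen with earlier results of these data known. Named were the 3 ChIP-qPCR loci, the 10 pairs with the best worse-of-both score rank, the 8 best with each motif, members of the lists (at most 6 each), the 3 longest and shortest shifts, and up to 10 protein-coding pairs astride a TSS. Genes of chromosome 18 are not named. Alternatives were tried for the pairing, distance limit, scores, sex chromosomes, transcripts, promoter, motifs, windows and the TSS used.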

Additional observations from a re-analysis of the deposited data

How the results depend on the processing

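The 11 results were recomputed under 16 alternatives, 4 of them chosen after seeing the data (the TSS of the middle of the pair, the TSS of the mitotic center, pairs whose shift could lead either way, and all pairs without chromosome 8). Of 83 values, 77 stayed within the interval of the reported value, or within 1.5 times of the count. Some of these could hardly differ. Taking only pairs that were each other's closest centers kept all 208, so its values were the reported ones. Leaving out the sex chromosomes kept 204 pairs. Taking only overlapping intervals kept 186 pairs and, with fixed peak widths, amounted to a shorter distance limit. The CTCF motif side, reported as 61.2% asynchronous, was 46.9% (15 of 32 pairs) with AGGGGGC and 7 of 14 pairs with up to 1 mismatch, both with intervals that include an even split, as does the reported one. The count fell to 109 when both scores had to reach the list median, and among those the RBPJ motif was on the asynchronous side in 100% of 10 pairs. TTCCCA raised the share with an RBPJ motif to 46.2%. The CTCF share was 6.73% with up to 1 mismatch and 15.4% with AGGGGGC. A promoter from 2 kb upstream to 500 bp downstream raised the promoter share to 49.0%. Intervals came to include an even split for the RBPJ motif side in joint windows reaching 150 bp (72.7%, 49.8 to 89.3), and in pairs with both scores at the median for the G+C side (58.7%, 48.6 to 68.2) and the TSS side (40.4%, 31.1 to 50.2). The cause was not tested. Leaving out a replicate was not possible with 1 list per population. No paired analysis was possible because each population has a single peak list. Counts under 10, such as the 9 mitotic windows with an RBPJ motif, limit what these lists can resolve.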
